A study of Homo sapiens with 7 samples.

Results

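The FOX, SOX, TBX and GATA genes encode transcription factors that share a DNA-binding domain within each family. Their places in broad domains of H3K9me3 and H3K27me3 were read in HCT116 cells, an established line from a human colorectal carcinoma. The members were all autosomal protein-coding genes of GENCODE 44 on hg38 named SOX, TBX or GATA with a number, or FOX with a letter and a number. This gave 77 of 19111 autosomal protein-coding genes, of which 42 were FOX, 18 SOX, 12 TBX and 5 GATA genes. A further 6 genes with such names lie on the sex chromosomes and were left out, namely GATA1, FOXP3, FOXR2, FOXO4, TBX22 and SOX3.

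Both marks were profiled by ChIP-seq in Clone 3 and Clone 6, each grown from a single HCT116 cell that carried a lentiviral shRNA against UHRF1 under doxycycline control (shUHRF1). All samples used here were at Baseline, without doxycycline, at day 14 where the label gave a day, so every group carried the shRNA without its inducer. The 7 samples were 2 of H3K9me3 and 2 of H3K27me3 in Clone 3, 2 of H3K27me3 in Clone 6, and an input of Clone 3 that has no domain set of its own. Of the 5 domain sets, 3 belong to a clone and mark (H3K9me3 in Clone 3, H3K27me3 in either clone) and hold the coordinates common to its replicates, and 2 hold the coordinates common to both clones for each mark. A line made from 1 cell may differ from its parent population, and 1 set per clone and mark leaves no spread between replicates to set beside a difference between the clones. No p-value could therefore be given. The methods state a minimum depth, and the depth of each library cannot be read from the domain sets.

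H3K27me3 is written by Polycomb repressive complex 2. In embryonic and adult cells it is known to cover genes of developmental regulators that are silent in that lineage, often at CpG-rich promoters. H3K9me3 is written by SUV39H and SETDB1 enzymes and marks constitutive heterochromatin, lamina-associated regions and repeats. FOX proteins bind DNA through a forkhead domain, SOX proteins through an HMG box, TBX proteins through a T-box and GATA proteins through zinc fingers. Each family includes factors that specify endoderm, heart, neural tissue, limb or blood, and several of them pattern the gut from which the colon derives.

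Upstream sequences are shown for 6 genes, which cover some but not all of the states found below. FOXI1 lay in H3K27me3 domains in both clones and was in the longest H3K27me3 domain that held a member, and SOX21 lay in domains of nearly equal edges in both clones. SOX1 and GATA3 were inside in Clone 6 only, and SOX2 and GATA2 are the close relatives of SOX1 and GATA3 that were outside in both clones. The sequences come from RefSeq promoter entries on GRCh38.p14, which matched 52 of the 77 genes. They run 5′ to 3′ on the strand of the gene up to the base before the RefSeq start, and capitals mark CpGs. For FOXI1 the bases were chr5:170105647-170105896 on the plus strand, for SOX21 chr13:94712546-94712715 on the minus strand, and for SOX1 chr13:112066899-112067148 on the plus strand. For SOX2 they were chr3:181711739-181711924 on the plus strand, for GATA3 chr10:8045083-8045332 on the plus strand, and for GATA2 chr3:128493202-128493451 on the minus strand. Exon bases farther upstream were left out for SOX21 (80) and SOX2 (64), and the RefSeq start of GATA3 lay 45 bp from the GENCODE start used in the counts.
FOXI1: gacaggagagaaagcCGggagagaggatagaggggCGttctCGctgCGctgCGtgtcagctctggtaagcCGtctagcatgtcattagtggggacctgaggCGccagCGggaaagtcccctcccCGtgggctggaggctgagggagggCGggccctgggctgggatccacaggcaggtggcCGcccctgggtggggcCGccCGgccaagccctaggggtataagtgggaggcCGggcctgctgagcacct
SOX21: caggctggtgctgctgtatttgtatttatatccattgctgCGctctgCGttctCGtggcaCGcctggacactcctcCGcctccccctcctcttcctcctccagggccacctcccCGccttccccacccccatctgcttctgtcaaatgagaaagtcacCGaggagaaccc
SOX1: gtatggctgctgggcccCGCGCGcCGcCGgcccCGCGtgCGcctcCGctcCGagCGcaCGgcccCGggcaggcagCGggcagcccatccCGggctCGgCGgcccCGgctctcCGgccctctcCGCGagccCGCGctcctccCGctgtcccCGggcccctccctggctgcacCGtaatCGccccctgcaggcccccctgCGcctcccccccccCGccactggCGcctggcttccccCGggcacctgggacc
SOX2: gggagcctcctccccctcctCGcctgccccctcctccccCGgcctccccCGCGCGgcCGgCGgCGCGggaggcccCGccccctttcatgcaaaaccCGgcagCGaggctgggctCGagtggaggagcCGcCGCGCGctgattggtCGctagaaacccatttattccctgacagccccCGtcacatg
GATA3: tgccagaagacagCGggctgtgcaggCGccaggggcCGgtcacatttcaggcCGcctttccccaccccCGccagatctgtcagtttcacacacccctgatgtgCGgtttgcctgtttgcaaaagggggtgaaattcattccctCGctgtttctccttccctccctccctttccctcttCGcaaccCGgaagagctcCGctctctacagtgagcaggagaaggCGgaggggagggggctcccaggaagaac
GATA2: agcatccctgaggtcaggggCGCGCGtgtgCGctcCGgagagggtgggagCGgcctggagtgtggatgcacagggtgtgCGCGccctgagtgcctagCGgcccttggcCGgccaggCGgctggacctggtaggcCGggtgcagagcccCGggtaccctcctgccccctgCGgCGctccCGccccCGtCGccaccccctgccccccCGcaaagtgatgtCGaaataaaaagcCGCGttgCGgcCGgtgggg

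The 250 bases before the start held 31 CpGs in SOX1, 20 in SOX2 and 24 in GATA2, against 14 in FOXI1 and 11 each in SOX21 and GATA3. The GATA3 bases lie near the start of the gene record. Its canonical transcript start, at 8054688, is 9.31 kb from there and past the end of the Clone 6 domain at 8052000. The GATA3 count therefore does not describe the canonical promoter. Of all 14616 autosomal coding genes with an entry, 14.6% had at least as many as SOX1, 44.5% as many as SOX2, 32.3% as many as GATA2, 61.6% as many as FOXI1 and 67.8% as many as SOX21 or GATA3. The SOX1 upstream bases were thus the most CpG-rich of the 6 shown, and in Clone 3 the nearest domain edge lay 1.15 kb before this start site.

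The first question was how many of the 77 genes had their start site, the 5′ end of the GENCODE gene record, inside a domain. In Clone 3 H3K27me3, 10 genes did (13.0%), against 6.49% of all autosomal protein-coding genes. In Clone 6 H3K27me3, 14 genes did (18.2%), against 7.98%. In the clone-shared H3K27me3 set, 8 genes did (10.4%), against 5.35%. The H3K27me3 shares were thus higher among these genes than among all genes in each of the 3 sets, by a description that takes no account of neighbouring genes in a common domain. The H3K9me3 shares were close to the background, with 3 genes (3.9%) in Clone 3 against 3.5% and the same 3 genes in the clone-shared set against 3.39%. No start site lay in both marks. In all, 19 of the 77 start sites lay in at least 1 of the 5 sets, against 12.6% of all genes, and 58 lay in none.

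**Figure D1:**
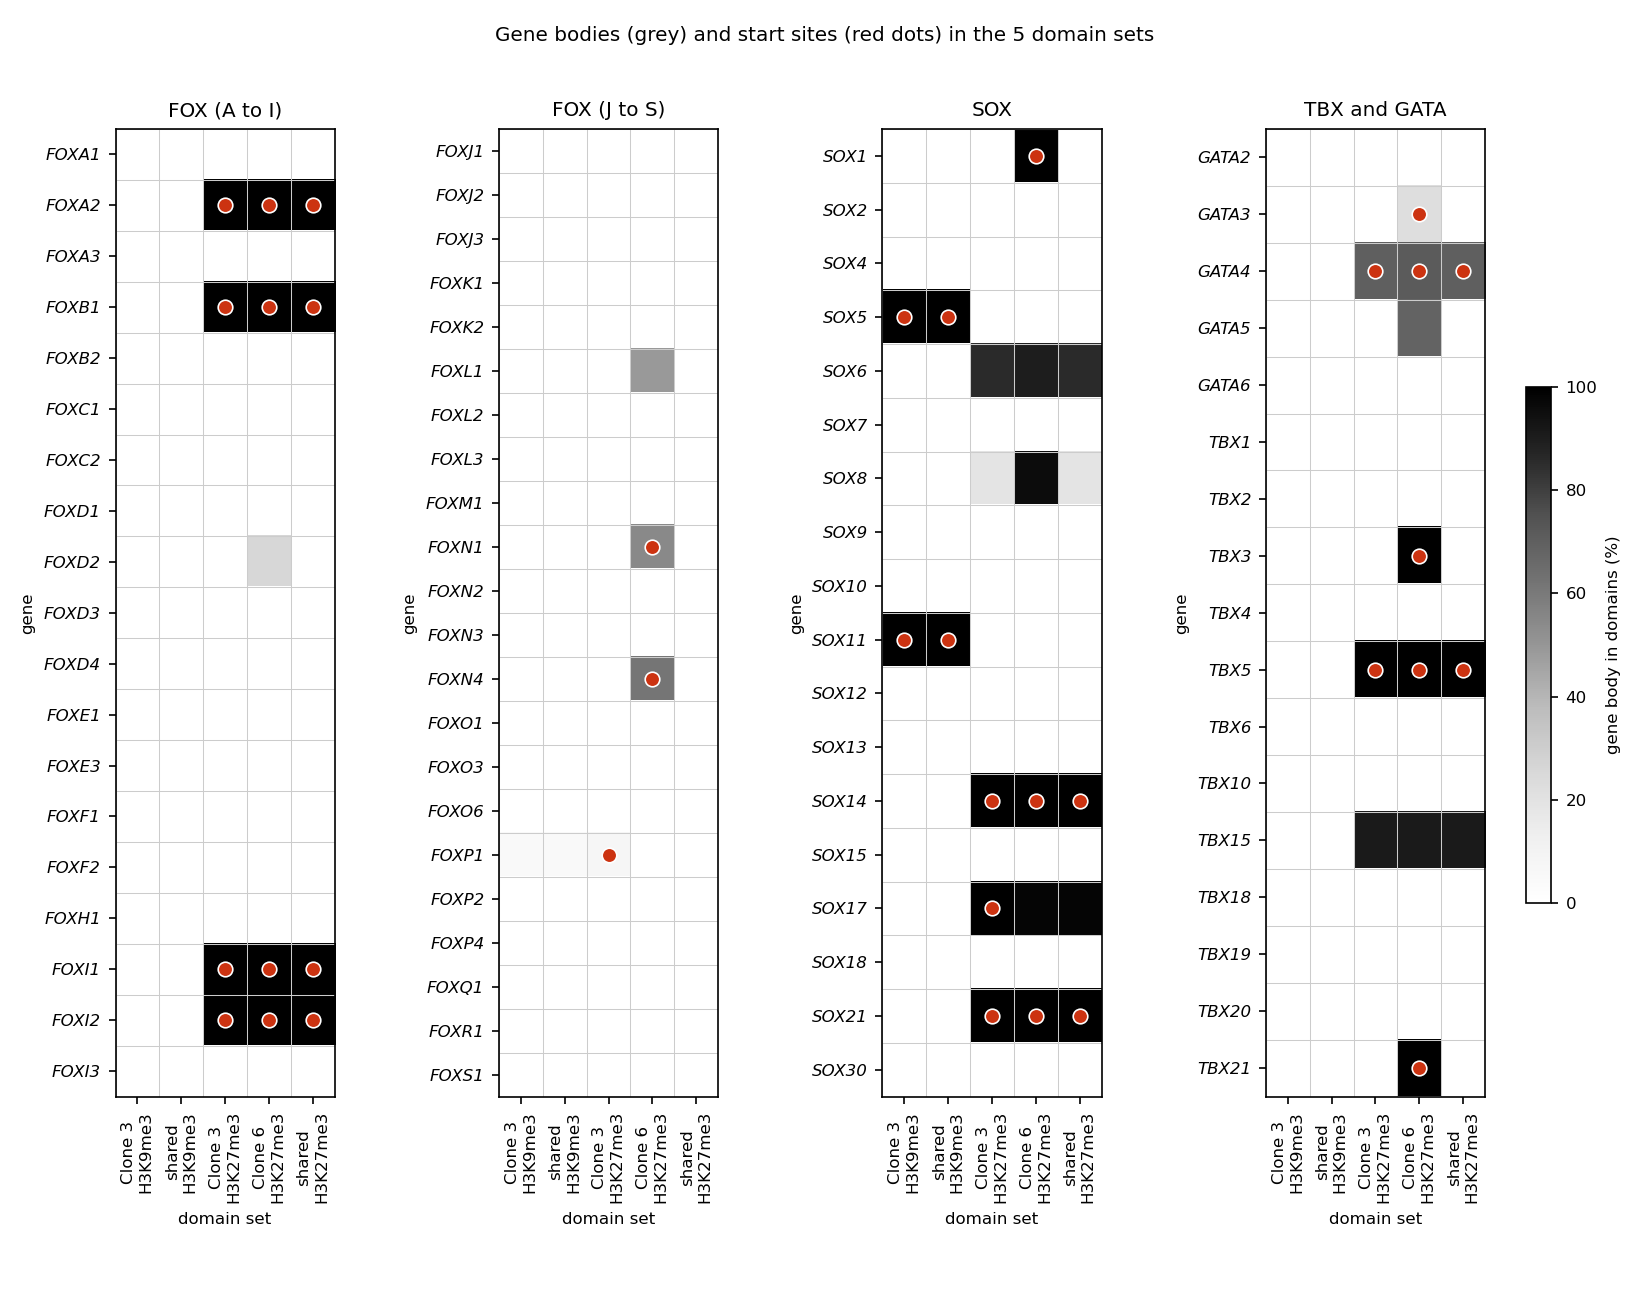
Each row is a gene and each column a domain set, the grey scale gives the percent of the gene body in domains and a red dot marks a start site inside a domain. Dots fill 10 cells of the Clone 3 H3K27me3 column and 14 of the Clone 6 column, and SOX6, TBX15, SOX8 and GATA5 show a dark body with no dot.

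The 8 genes inside H3K27me3 in both clones were FOXA2, FOXB1, FOXI1, FOXI2, GATA4, SOX14, SOX21 and TBX5, and these were also the 8 genes of the clone-shared set. They made up 10.4% of the members, against 5.35% of all genes. FOXA2 is a pioneer factor of the endoderm, FOXB1 acts in the embryonic hypothalamus, and FOXI1 controls proton pump genes in ionocytes and kidney intercalated cells. SOX14 and SOX21 are the SOXB2 factors of neural progenitors and neurons, TBX5 forms the heart and forelimb, and GATA4 acts in heart and endoderm. FOXP1 and SOX17 were inside in Clone 3 only, which is 2.6% of the members against 1.14% of all genes. FOXN1, FOXN4, GATA3, SOX1, TBX3 and TBX21 were inside in Clone 6 only, which is 7.79% against 2.64%. The other 61 genes (79.2%) were outside H3K27me3 in both clones.

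Start sites of 16 genes (20.8%) were inside in either clone, against 9.13% of all genes. Of the 16, 50.0% were inside in both, 12.5% in Clone 3 only and 37.5% in Clone 6 only. Over all autosomal coding genes inside in either clone the split was 58.6%, 12.5% and 28.9%. The numbers of members were small and moved with the setting. With a margin of 10 kb, 13 were inside in both clones and 1 in Clone 3 only, and by body cover of at least 50%, 11 were inside in both and 0 in Clone 3 only. In domains of at least 100 kb the genes inside in Clone 6 only numbered 3 instead of 6, and of the 2 Clone 3 genes SOX17 was 66 bp outside a Clone 6 domain.

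The families were compared by the share of their start sites inside, beside 6.49% of all genes in Clone 3 H3K27me3 and 7.98% in Clone 6. For FOX, 5 of 42 start sites (11.9%) were inside H3K27me3 in Clone 3 and 6 (14.3%) in Clone 6. For SOX, 3 of 18 (16.7%) were inside in each clone. For TBX, 1 of 12 (8.33%) was inside in Clone 3 and 3 (25.0%) in Clone 6. For GATA, 1 of 5 (20.0%) was inside in Clone 3 and 2 (40.0%) in Clone 6. Some counts of SOX, TBX and GATA moved by over 1.5 times under other settings, but small counts pass this bound when few genes change. The larger FOX counts in the H3K27me3 sets stayed within it, although FOX in Clone 6 went from 6 to 9 with a margin of 10 kb. This does not rank the families by stability. With a margin of 10 kb, TBX in Clone 3 went from 1 to 3 and SOX from 3 to 5 in each clone. By body cover of at least 50%, SOX in Clone 6 went from 3 to 6 and TBX in Clone 3 from 1 to 2, and with the canonical transcript start or domains of at least 100 kb, GATA in Clone 6 went from 2 to 1. A single gene is 20.0% of the GATA family and 8.33% of the TBX family, and no test of a difference between families was made. Counted as inside in at least 1 of the clones, FOX had the lowest share, with 7 genes (16.7%), against 9.13% of all genes. The others were 4 SOX genes (22.2%), 3 TBX genes (25.0%) and 2 GATA genes (40.0%). In Clone 3 alone TBX had the lowest share (8.33%), near the 6.49% of all genes. In Clone 3 H3K9me3, where 3.5% of all genes lay, the start sites inside were those of 1 FOX gene (2.38%) and 2 SOX genes (11.1%), with no TBX or GATA gene.

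Within the FOX family the 7 genes inside H3K27me3 in either clone came from the FOXA, FOXB, FOXI, FOXN and FOXP subgroups. FOXI had 2 of 3 members inside in both clones, with FOXI3, a factor of ectodermal appendages, outside at 312 kb from the nearest Clone 3 domain and 103 kb from the nearest Clone 6 domain. FOXA2 was inside and the other FOXA genes were outside. FOXA1 lay 644 kb from a Clone 3 domain and 3760 kb from a Clone 6 domain, and FOXA3, a liver and gut factor, lay 175 and 166 kb away. FOXB1 was inside in both clones, whereas FOXB2 lay outside in both, 16.3 kb from a Clone 3 domain and 532 kb from a Clone 6 domain. FOXN1, which thymic epithelium requires, and FOXN4, a factor of retinal progenitors, were inside in Clone 6 only, and the broadly expressed FOXN2 and FOXN3 were outside in both.

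Of the other FOX subgroups, FOXP1 alone had a start site in H3K27me3. The genes outside in both clones were FOXC1 and FOXC2 of mesenchyme and vessels, FOXD1, FOXD2, FOXD3 and FOXD4, FOXE1 of the thyroid and FOXE3 of the lens, FOXF1 and FOXF2 of gut mesenchyme, and FOXH1, a partner of SMAD proteins. Also outside were FOXJ1 of motile cilia, FOXJ2, FOXJ3, FOXK1, FOXK2, FOXL1, FOXL2 of the ovary, FOXL3, the cell cycle factor FOXM1, the insulin-responsive FOXO1, FOXO3 and FOXO6, FOXP2, FOXP4, FOXQ1, FOXR1 and FOXS1. The distances of the FOX genes outside ranged up to 9220 kb in Clone 3, for FOXP2, and up to 9440 kb in Clone 6, for FOXO3.

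Among the SOX genes, both SOXB2 genes were inside H3K27me3 in both clones. The SOXB1 genes differed, with SOX1 inside in Clone 6 and SOX2, the factor of pluripotent and neural stem cells, outside at 57.9 kb from a Clone 3 domain and 128 kb from a Clone 6 domain. Of the SOXF genes, which act in endothelium and endoderm, SOX17 was inside in Clone 3, SOX7 lay 111 kb outside in both clones, and SOX18 lay 2160 and 874 kb outside. The SOXE genes SOX8, SOX9 and SOX10 were outside in both clones, as were SOX4, SOX11 and SOX12 of the SOXC group, SOX5, SOX6 and SOX13 of the SOXD group, SOX15 and SOX30. SOX9, a factor of intestinal crypts and cartilage, lay 1360 kb from a Clone 3 and 1320 kb from a Clone 6 domain.

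Among the TBX genes, TBX5 and TBX3 of the TBX2 subfamily and TBX21, which directs T helper cells, were inside in at least 1 clone. TBX1, TBX2, TBX4, TBX6, TBX10, TBX15, TBX18, TBX19 and TBX20 had start sites outside in both. TBX2 and its neighbour TBX4, whose start sites are 52.6 kb apart on chromosome 17, lay 47.8 and 100 kb from a Clone 6 domain but 3220 and 3270 kb from a Clone 3 domain. Of the 5 GATA genes, GATA4 was inside in both clones, GATA3 in Clone 6 only, and GATA2, GATA5 and GATA6 in neither. GATA6, a factor of intestinal and other endoderm, was the farthest, 2460 kb from a Clone 3 domain and 2380 kb from a Clone 6 domain.

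The domains that held members were long compared with the others of their set. In Clone 3, 10 H3K27me3 domains held the 10 genes and had a median length of 450 kb, from 140 to 1895 kb, against a median of 67 kb over 2332 autosomal domains and 189 kb over the 679 domains with a coding start site. In Clone 6, 13 domains held the 14 genes, with a median of 340 kb and a range from 30 to 2118 kb, against 84 kb over 1803 domains and 161 kb over the 782 domains with a coding start site. A long domain has more room for a start site, so the second comparison of each pair is the closer one. A member was the only coding gene with its start site in the domain in 6 of 10 Clone 3 domains and in 8 of 13 Clone 6 domains. Of all domains with a coding start site, 65.4% in Clone 3 and 63.6% in Clone 6 held just 1, so the domains of members were near that background.

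The FOXI1 domain, on chromosome 5, was the longest H3K27me3 domain that held a member. It spanned 168715001 to 170610000 (1895 kb) in Clone 3, and 168644001 to 170762000 (2118 kb) in Clone 6. It held 8 other coding start sites, among them SLIT3, DOCK2, LCP2 and KCNIP1. The GATA4 domain was the shortest of the clone-shared ones with a member, on chromosome 8. It spanned 11595001 to 11735000 (140 kb) in Clone 3, and 11512001 to 11736000 (224 kb) in Clone 6. Its end was the same to 1 kb in the clones, while the start on the side upstream of GATA4 was 83 kb farther out in Clone 6. The body of GATA4, at 11676959 to 11760002 on the plus strand, ran past that common end and was 69.9% covered in Clone 3 and 71.1% in Clone 6.

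Edges of the other domains common to the clones differed by amounts from 0 to 1317 kb. Edges stood on steps of 2 kb in Clone 6 and 1 kb in Clone 3, so differences of up to 2 kb are within the step. The FOXI2 domain on chromosome 10 spanned 127460001 to 127853000 in Clone 3, with Clone 6 edges at 127458001 and 127854000, which are 2 and 1 kb apart. The SOX21 domain on chromosome 13 had edges 2 and 11 kb apart, the FOXB1 domain on chromosome 15 had edges 19 and 3 kb apart, and the FOXA2 domain on chromosome 20 had edges 76 and 9 kb apart. The SOX14 domain on chromosome 3 ended at 137968000 in both clones, and its start was 423 kb farther out in Clone 6. For these 5 genes the Clone 3 domain was covered by the Clone 6 domain over 87.4% to 100% of its length. FOXI2 shared its domain with NPS, and FOXA2 shared its domain with SSTR4, THBD and CD93.

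TBX5 and TBX3, a pair of genes whose start sites are 276 kb apart on chromosome 12, gave the widest difference of edges. In Clone 6 a single domain from 113968001 to 115932000 (1964 kb) held both genes and no other coding start site. In Clone 3 a domain from 113972001 to 114615000 (643 kb) held TBX5, and 2 further domains, from 114686001 to 114722000 (36 kb) and from 114782001 to 115926000 (1144 kb), lay beyond TBX3. TBX3, at 114670255 to 114684175 on the minus strand, lay whole in the 71 kb gap of Clone 3 between 114615001 and 114686000, with its start site 1.83 kb from the next domain. The edge beyond TBX5 differed by 4 kb between the clones. At the far side the last Clone 3 domain ended at 115926000, close to the Clone 6 end at 115932000. The difference of 1317 kb thus compares the TBX5 domain of Clone 3 alone with the whole Clone 6 domain. The outer limits of the region were close in the clones, and Clone 3 had gaps within it.

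SOX1 showed a like arrangement on chromosome 13. The Clone 6 domain from 111844001 to 112184000 (340 kb) held the whole gene, at 112067149 to 112071706 on the plus strand, and no other coding start site. In Clone 3 the domain on the upstream side ended at 112066000, which is 1.15 kb before the start site, and the next began at 112087001, so that the gene lay in a gap of 21 kb. In both TBX3 and SOX1 the gene body was 0% covered in Clone 3 and 100% in Clone 6.

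Such gaps were then counted for all genes, a measure chosen after these values were seen. A start site outside the domains of a clone and in a gap of at most 200 kb between 2 of them was found for 3 genes in Clone 3 (3.9%), namely SOX1, TBX3 and FOXB2, against 1.89% of all genes. In Clone 6 it was found for 5 genes (6.49%), namely FOXF1, FOXC2, FOXL1, GATA2 and GATA5, against 2.95%. No gene was in such a gap in both clones. FOXF1, FOXC2 and FOXL1 lie within 65.8 kb of each other on chromosome 16 and shared a Clone 6 gap of 72 kb, from 86508001 to 86580000. The start sites of FOXF1, FOXL1 and FOXC2 were 2.53, 3.63 and 13.2 kb from a Clone 6 domain but 194, 129 and 138 kb from a Clone 3 domain.

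**Figure D2:**
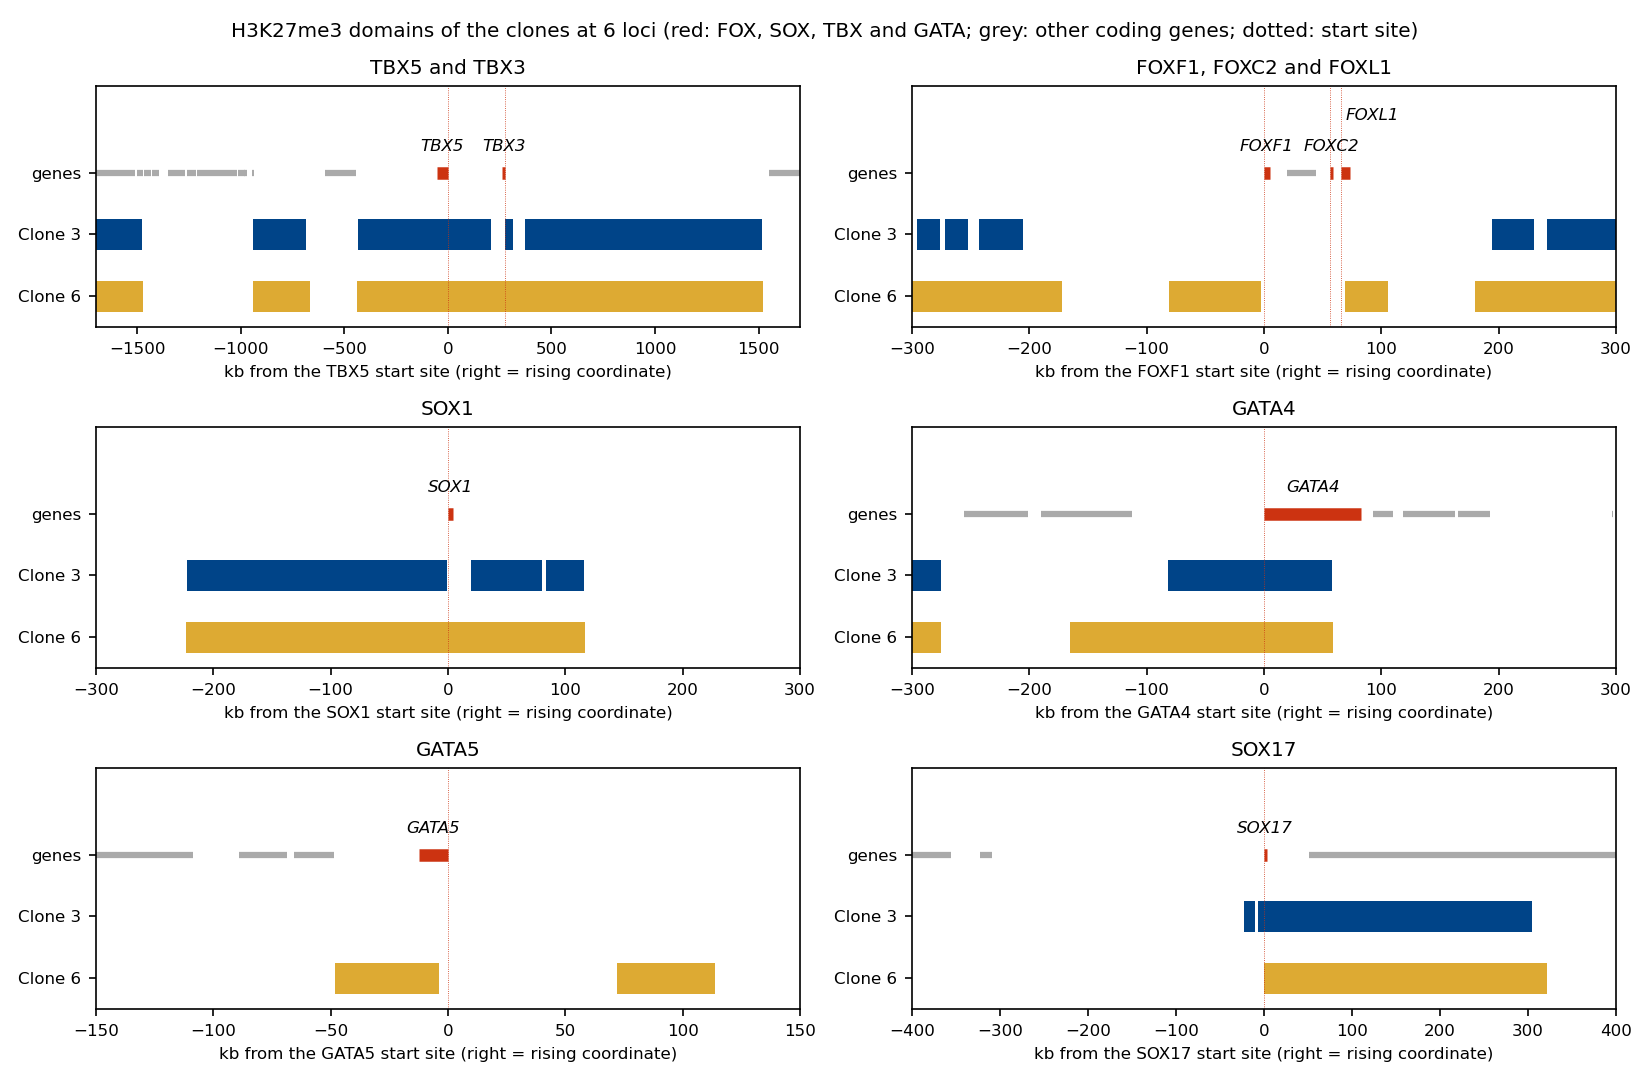
H3K27me3 domains of Clone 3 (blue) and Clone 6 (yellow) are drawn to scale at 6 loci, in kb from the start site of the named gene, with members in red, other coding genes in grey and start sites as dotted lines. TBX3 and SOX1 sit in Clone 3 gaps of 71 and 21 kb that the Clone 6 domain spans, and FOXF1, FOXC2 and the FOXL1 start site sit in a Clone 6 gap of 72 kb.

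SOX17 and SOX8 turned on the position of an edge. SOX17, on chromosome 8 at 54457935 to 54460892 on the plus strand, was inside the Clone 3 domain from 54451001 to 54763000. The Clone 6 domain ran from 54458001 to 54780000, so the start site was 66 bp outside it and 97.8% of the body inside. Clone 6 edges lie on steps of 2 kb, so 66 bp is below the step of an edge and does not separate the clones. SOX8, on chromosome 16, had its start site 231 bp outside a Clone 6 domain with 95.6% of the body inside, and 4.23 kb outside a Clone 3 domain with 18.8% of the body inside. By the start site SOX17 counts as a Clone 3 gene and SOX8 as outside in both, while by the body both were covered in Clone 6.

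The other genes of a single clone were farther from the domains of the second clone. FOXP1, a factor of lymphocytes, heart and brain, lies on chromosome 3 at 70954693 to 71583978 on the minus strand. Its start site was in a Clone 3 domain of 187 kb, from 71538001 to 71725000, and 24.0 kb outside a Clone 6 domain. That domain held 13 of its 36 coding transcript starts and 7.31% of its 629 kb body, the rest of which was outside H3K27me3. GATA3, a factor of T cells and mammary epithelium, lies on chromosome 10 at 8045378 to 8075198 on the plus strand, and its Clone 6 domain of 30 kb ran from 8022001 to 8052000. The domain held 22.2% of the body and 1 of 5 coding transcript starts, and the nearest Clone 3 domain was 51.6 kb from the start site.

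FOXN1, on chromosome 17 at 28506243 to 28538900 on the plus strand, was in a Clone 6 domain of 100 kb, from 28424001 to 28524000, which also held the start of SLC13A2 and covered 54.4% of the FOXN1 body. FOXN4, on chromosome 12 at 109277978 to 109309284 on the minus strand, was in a Clone 6 domain of 42 kb, from 109290001 to 109332000, with 61.6% of the body. TBX21, on chromosome 17 at 47733236 to 47746122 on the plus strand, was whole in a Clone 6 domain of 46 kb, from 47704001 to 47750000. The nearest Clone 3 domain was 464 kb away for FOXN1, 799 kb for FOXN4 and 3730 kb for TBX21. The domains of GATA3, FOXN4 and TBX21 were also among the shorter and lower-scored of Clone 6. By the lower of the authors' 2 scores per domain they ranked at percentiles 3.47, 33.7 and 0.536 of their set, against 50.2 for FOXN1, 85.9 for SOX1 and 99.9 for the domain of TBX3 and TBX5.

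**Figure D3:**
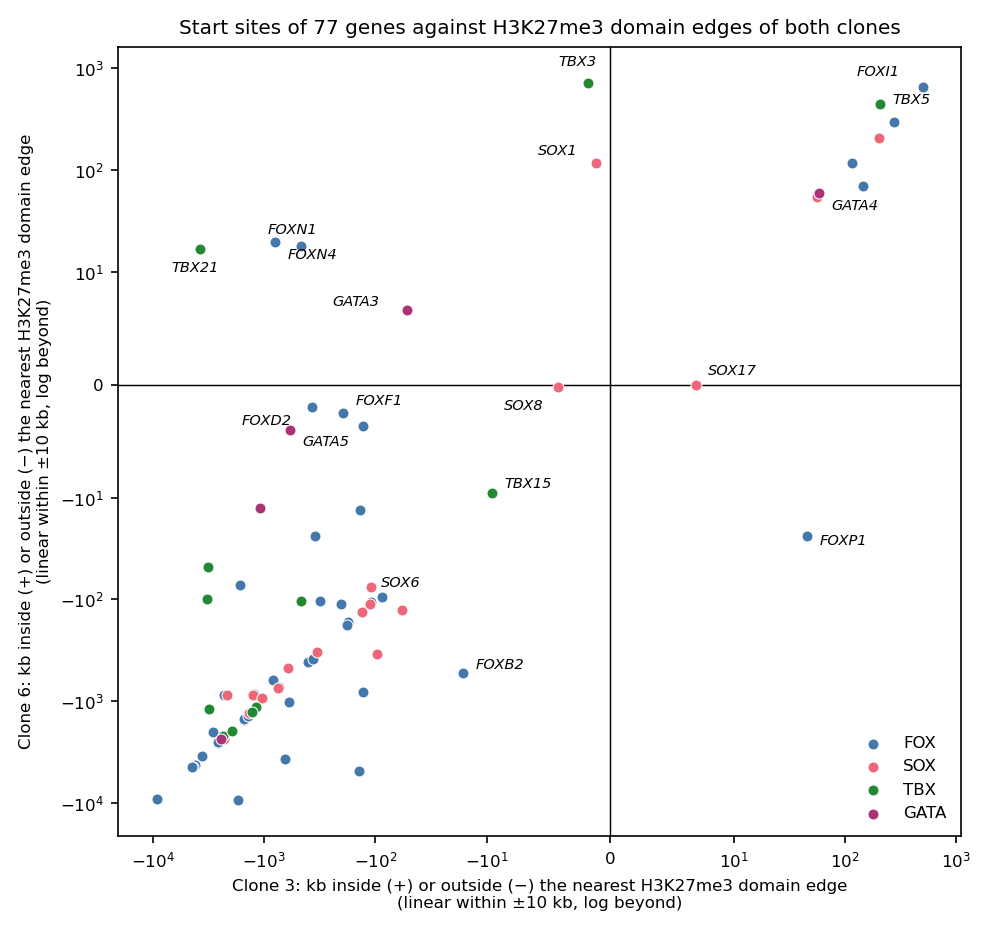
For each of the 77 start sites the distance to the nearest H3K27me3 domain edge is plotted for Clone 3 (x) and Clone 6 (y), positive inside a domain and negative outside, on axes linear within 10 kb and logarithmic beyond. The 8 genes inside in both clones fill the upper right, TBX3, SOX1 and SOX17 lie within 10 kb of an edge in the clone where they were outside, and FOXN1, FOXN4, GATA3 and TBX21 do not.

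A margin of 10 kb around the start site brought in genes just outside an edge. In Clone 3 it raised the count from 10 to 14 genes (18.2%), against 8.14% of all genes, by adding SOX1, SOX8, TBX3 and TBX15. In Clone 6 it raised the count from 14 to 21 (27.3%), against 10.2%, by adding FOXD2, FOXF1, FOXL1, GATA5, SOX8, SOX17 and TBX15. Of the genes of a single clone, 1 of 2 Clone 3 genes and 2 of 6 Clone 6 genes were within 10 kb of a domain of the second clone, against 10.1% of 218 and 20.8% of 504 such genes among all autosomal coding genes.

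The gene bodies gave a second reading. At least 50% of the body was covered in 11 genes in Clone 3 H3K27me3, against 6.83% of all genes, and in 18 genes in Clone 6, against 7.82%. The body lay whole in domains in 8 genes in Clone 3, against 4.73% of all genes, and in 10 in Clone 6, against 5.7%. At least 1 bp was covered in 13 genes in Clone 3, against 8.7%, and in 21 in Clone 6, against 10.3%. SOX6, a SOXD factor of cartilage and muscle, had a mostly covered body and an outer start site. On chromosome 11, 85.8% of its 773 kb body was in Clone 3 domains and 90.2% in Clone 6 domains, while the start of the gene record lay 110 and 75.6 kb outside. All 10 of its 10 coding transcript starts were inside in both clones, so SOX6 was outside by the 5′ end of the gene record and inside by each coding transcript start.

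TBX15, a factor of limb and craniofacial skeleton, had 91.0% of its 107 kb body on chromosome 1 in domains of both clones, with the start site 9.56 kb outside in each and 1 of 3 coding transcript starts inside. GATA5 on chromosome 20, at 62463497 to 62475995 on the minus strand, had 68.0% of its body in a Clone 6 domain that ended 4.0 kb short of the start site, and 0% in Clone 3, where the nearest domain was 589 kb away. FOXL1 had 48.9% and FOXD2 26.1% of the body in Clone 6 domains that began 3.63 and 1.96 kb downstream of the start sites. GATA2, on chromosome 3 at 128479427 to 128493201 on the minus strand, had no base in a domain of either clone, with start site distances of 12.8 kb in Clone 6 and 1090 kb in Clone 3. The gap of Clone 6 that held GATA2 ran from 128478001 to 128506000, only 28 kb, and held its whole body. GATA6, on chromosome 18 at 22169589 to 22202528 on the plus strand, likewise had no covered base.

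H3K9me3 covered SOX5 and SOX11 whole, in the Clone 3 and in the clone-shared set. SOX5, a factor of cartilage and cortical neurons, lay alone in a Clone 3 domain of 1692 kb on chromosome 12, from 22984001 to 24676000, which was 1464 kb in the clone-shared set. SOX11, of neural progenitors, lay alone in a domain of 2324 kb on chromosome 2, from 4176001 to 6500000. SOX11 is at 5692384 to 5701385 on the plus strand, and SOX5 is at 23529504 to 24562544 on the minus strand. Clone 3 H3K9me3 domains with a coding start site had a median of 1061 kb, and the autosomal median of the set was 192 kb. Of the 3 Clone 3 H3K9me3 domains with a member, 2 held just 1 coding start site, against 54.3% of domains with a coding start site. The H3K27me3 domain nearest to these genes was 132 kb from SOX5 and 1040 kb from SOX11 in Clone 3. A small part of the FOXP1 body was also in H3K9me3.

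The surroundings of the start sites were read next, for the H3K27me3 domains of each clone. Within 100 kb on either side of the start site, domains covered 15.1% of the sequence on average in Clone 3 and 21.0% in Clone 6, against 7.61% and 9.3% around all genes. Some domain lay in that window for 24.7% of the members in Clone 3 and 37.7% in Clone 6, against 16.2% and 21.7%. These averages include the members that lay inside a domain themselves. For members whose own start site was outside, the average was 4.17% in Clone 3 and 8.23% in Clone 6, against 2.82% and 3.8% over all genes outside. The medians were 0.0% throughout. Only 9 of these 67 members in Clone 3 (13.4%) and 15 of 63 in Clone 6 (23.8%) had any cover, against 10.3% and 14.9% of all genes outside. SOX1 alone had 87.5% in Clone 3, so the Clone 3 average leans on this gene. Within 500 kb, the members outside averaged 10.6% in Clone 3 and 13.9% in Clone 6, against 7.81% and 8.98%. All 19111 genes showed a dip at the start site, with 6.49% at the start against a mean of 13.0% at 200 to 1000 kb in Clone 3, and 7.98% against 14.3% in Clone 6. The members had 13.0% at the start against 17.8% in Clone 3, and 18.2% against 20.8% in Clone 6. Neighbouring members share windows, so these averages rest on fewer than 77 independent places.

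**Figure D4:**
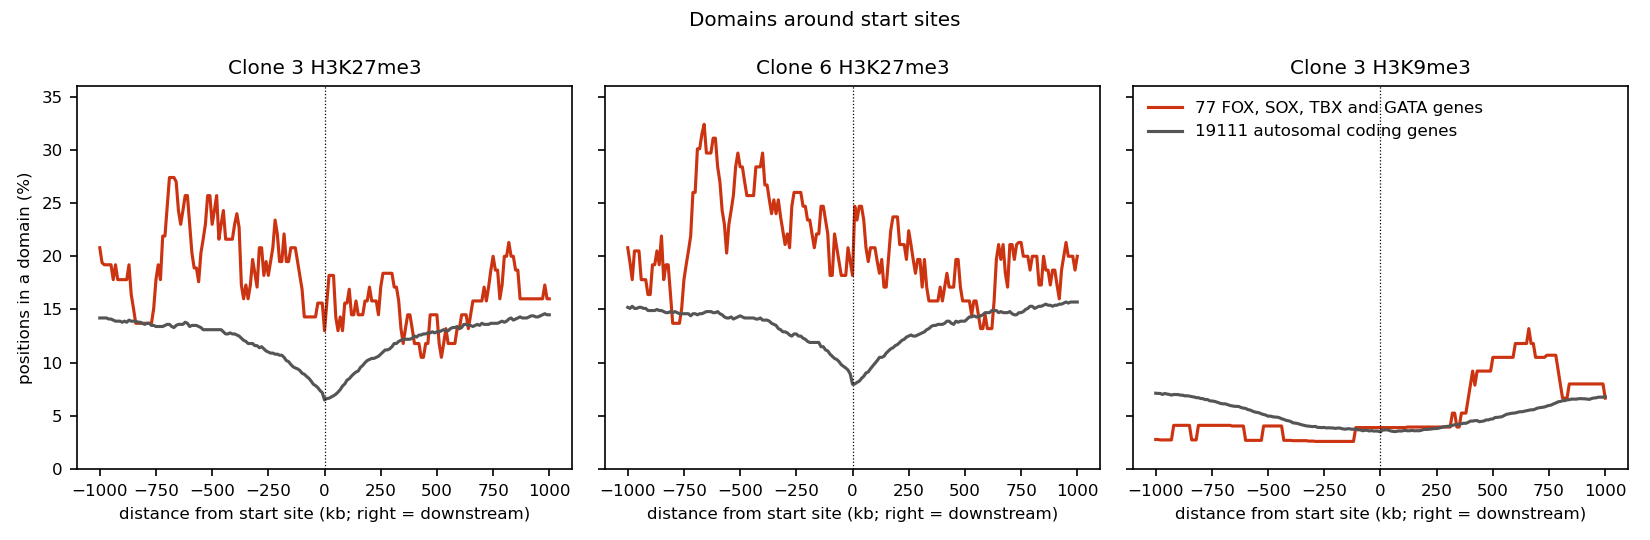
The percent of positions in a domain is plotted against the distance from the start site in steps of 10 kb, for the 77 members (red) and all 19111 genes (grey), in 3 sets. All genes fall to 6.49% and 7.98% at the start site in the H3K27me3 sets, while the members stand at 13.0% and 18.2%, and in H3K9me3 both stand near 3.5% to 3.9%.

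The start sites of the members were rich in CpGs. Counted over 500 bp on either side, the median was 87.9 CpGs per kb, from 17.0 at SOX10 to 171 at FOXK2, against 58.9 over all genes. The family medians were 89.4 for FOX, 84.9 for SOX, 82.9 for GATA and 75.4 for TBX. Members inside H3K27me3 in either clone had a median of 69.4 (23.0 to 118), and members outside in both had 88.9 (17.0 to 171), so the ranges overlapped widely. Over all genes the medians were 22.0 inside in either clone and 60.9 outside in both. The gap among members depended on the window, with medians of 69.2 inside and 73 outside over 1000 bp on either side, and 79.4 and 90.9 around canonical transcript starts. The 8 members inside in both clones had a median of 57.4, from 23.0 at GATA4 to 96.9 at FOXI2, against 17.0 over the 1022 genes of that class. In the 250 bases before RefSeq starts the median was 14 CpGs for the 11 matched members inside and 24 for the 41 outside, against 18 over all genes.

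**Figure D5:**
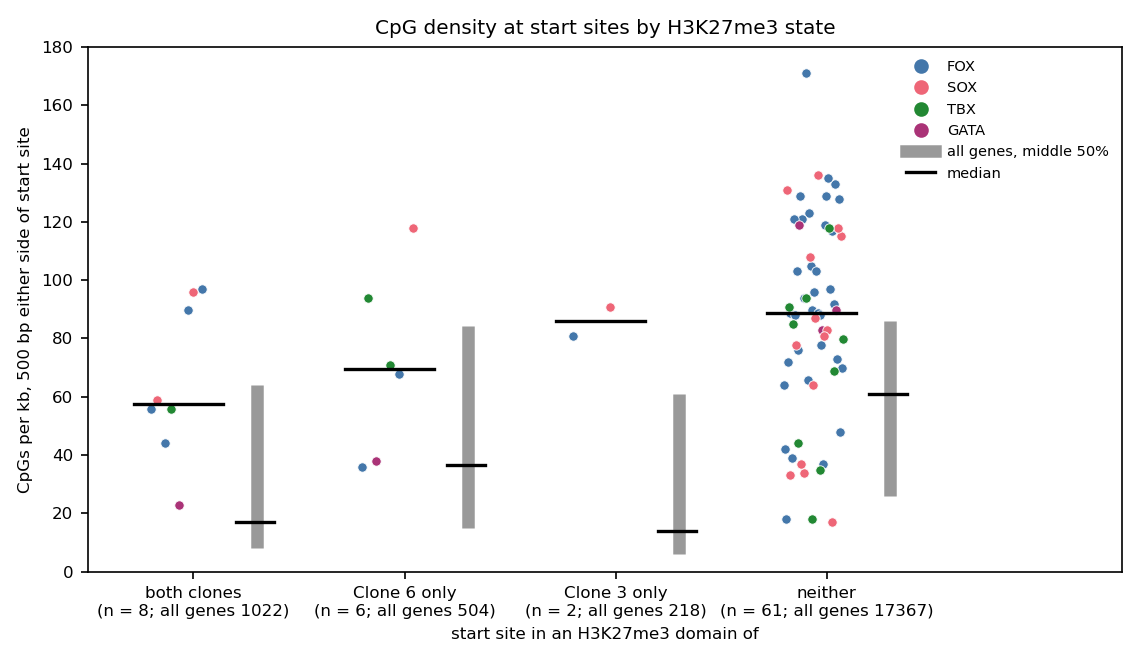
CpGs per kb over 500 bp on either side of the start site are plotted for each member by H3K27me3 class, coloured by family, with the median as a black line and the middle 50% of all genes of that class as a grey bar. The members inside in both clones have a median of 57.4 and all genes of that class 17.0, and outside in both clones the medians are 88.9 and 60.9.

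Lists of related genes were read in the same way, beside the 9.13% of all genes inside H3K27me3 in either clone. The lists hold from 11 to 26 genes, so that share stands for few genes in any of them, and a count of 0 was not tested against it. Of 20 genes with the same kinds of DNA-binding domain but other symbols, among them TBXT, EOMES, LEF1, TCF7L2 and the FOXD4-like genes, none had a start site in H3K27me3 of either clone, and TRPS1 was in H3K9me3. The counts in H3K27me3 were 0 of 26 for Polycomb subunits and an H3K27 demethylase and 0 of 12 for H3K9 methyltransferases and readers, none of which was in H3K9me3. Of 11 cofactors of the families, POU3F2, a partner of SOX factors in neural cells, was inside in both clones and ZFPM2, a partner of GATA4, in Clone 6 only. Body cover differed from this, with 8.74% of POU3F2 in Clone 3 domains and 100% in Clone 6. For ZFPM2 it was 43.3% in Clone 3 and 63.5% in Clone 6. All 12 colon epithelium genes, among them CDX2, VIL1, EPCAM and CDH1, were outside both marks. Of 13 markers of other cell types, the liver gene APOB was inside in both clones and the muscle gene MYH7 in Clone 6 only. The start site of the fibroblast gene PDGFRA was outside, but 70.0% of its body was in Clone 3 and 72.9% in Clone 6 H3K27me3 domains. The domain sets hold no expression, so these positions do not show which of the genes were transcribed in HCT116.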

How the data were processed

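Read pairs from ChIP-seq of H3K9me3 and H3K27me3 in 7 samples were processed by the authors. Per the methods and the submitters' processing notes, this used Trim Galore 0.5.0, FastQC 0.11.8, Bowtie2 2.3.5 on hg38, samblaster, deepTools 3.2.0 and bedtools 2.25.0, and domains were called with Enriched Domain Detector at default settings. The authors deposited 5 domain sets, as coordinates with edges on steps of 1 kb (2 kb in Clone 6 H3K27me3), kept where they were common to the replicates and, for the shared sets, to both clones. The clone sets also hold 2 deposited score columns per domain, whose scale is not given in the sources used here, and the score was used only to rank domains. Clone 6 H3K9me3 was not analysed here apart from the clone-shared set.

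Genes came from GENCODE 44 and promoter entries from RefSeq (GRCh38.p14). A gene was inside a set when its start site lay in a domain, and body cover was counted by bases. Counts were set beside the same share over 19111 autosomal protein-coding genes, and no test was run. The interval routines were tested on simulated data. The members are named, except 1 that counts in the totals and is not reported here, and coordinates are given for genes of a single clone, genes in H3K9me3, genes that share a domain, GATA genes, the longest and shortest shared domains and genes nearest an edge. The members and lists were chosen with earlier results of these data known. Alternatives were other start sites, margins of 10 kb, domains of at least 100 kb, the upper 50% of domains by score, body cover and domains counted once. Versions were pandas 2.3.3, numpy 2.4.6, pysam 0.24.0 and matplotlib 3.10.9 under Python 3.11.15.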

Additional observations from a re-analysis of the deposited data

How the results depend on the processing

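Of 119 values recomputed under the alternatives, 103 stayed within 1.5 times the count reported, or, for a median, within 1 SD. The bound for a median is wide. The median of 88.9 CpGs per kb for members outside H3K27me3 counted among the 103, although it was 73 over 1000 bp on either side. The counts of members ranged from 9 to 14 in Clone 3 H3K27me3, from 11 to 21 in Clone 6, from 8 to 13 in the clone-shared set and from 3 to 4 in each H3K9me3 set. With a margin of 10 kb, the clone-shared count rose to 13, the genes inside in both clones to 13, SOX to 5 in each H3K27me3 set and TBX to 3 in Clone 3 and in the clone-shared set, while Clone 3 only fell to 1. With at least 50% of the body covered, Clone 3 only fell to 0, SOX rose to 6 in Clone 6 and to 4 in the clone-shared set, and TBX rose to 2 in Clone 3 and in the clone-shared set. With domains of at least 100 kb, Clone 6 only fell to 3 and GATA in Clone 6 to 1, since the short domains of FOXN4, GATA3 and TBX21 were left out. With the start of the canonical transcript, GATA in Clone 6 was 1, because GATA3 then lay outside, and SOX6 came inside in both clones. No paired analysis was possible because each deposited set holds the coordinates common to its replicates, with no set per replicate, and for the same reason no replicate could be left out. A start site outside a domain shows only that no domain was called there in both replicates, and not that the mark was absent.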
